A study of Homo sapiens with 8 samples.

Results

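Newly made RNA of 10 genes of the activin, TGF-beta and ID families was compared across 4 groups of U2OS libraries. The genes are INHBA, FST, TGFB1, TGFB2, SMAD3, SMAD7, BMP4, ID1, ID2 and ID3. They were taken by symbol from the 19414 coding genes listed in the files, all 10 were found, and all 10 passed the filter on low values that left 11985 genes for testing. The assay was TT-seq, in which cells are given the base analogue 4-thiouridine so that RNA made during the labelling can be read. U2OS is a human osteosarcoma cell line. The genotype labels define the groups WT, Zab, MYC O/E (overexpression of MYC) and Zab + MYC O/E, with 2 libraries in each and no treatment named. The vector and promoter behind each label, whether a group is 1 clone, and the length of labelling are not given in the sources used here. Zαβ, written in the series' design text, is the usual name for a region of the RNA-editing enzyme ADAR that binds left-handed nucleic acids. Whether the 2 libraries of a group are separate cultures is not labelled, so the p-values below reflect the spread among libraries alone, and that spread may be technical.

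Activins, TGF-betas and bone morphogenetic proteins (BMPs) are secreted dimers of one superfamily, and they signal through receptor kinases that phosphorylate SMAD proteins. Activin and TGF-beta act mainly through SMAD2 and SMAD3, BMPs through SMAD1, SMAD5 and SMAD9, and the inhibitory SMAD7 limits both branches. ID proteins are helix-loop-helix proteins without a DNA-binding region that hold back their partners, and ID1, ID2 and ID3 are textbook targets of BMP signalling in mesenchymal cells such as osteoblasts.

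The levels of 2 genes bear on the labels. MYC stood at 764 ± 17.1 CPM (SD, n = 2; CPM is a library's reads scaled to a common total) in WT, 966 ± 69.5 in Zab, 6592 ± 20.2 in MYC O/E and 762 ± 14.2 in Zab + MYC O/E, so the last group did not show the MYC overexpression that its label states. ADAR, the gene that encodes the Zαβ region, stood at 33906 ± 11.6 CPM in WT, 543 ± 33.9 in Zab, 455 ± 13.1 in MYC O/E and 32311 ± 41.8 in Zab + MYC O/E. The files do not say whether a construct adds to the ADAR count. Since these levels go against the labels, groups are called here the libraries labelled WT, Zab, MYC O/E or Zab + MYC O/E, and every direction below is between libraries so labelled. The libraries labelled WT and Zab + MYC O/E were also close over all genes, with a chi-square per gene of 2.71 to 2.81 between them, against 1.99 to 2.05 within groups and 25.5 to 43.0 for the 20 other pairs. Counting noise alone gives 2 where every read comes in twos, so the libraries of a group differed by about that noise, and the p-values below may be too small for separate cultures. Libraries held 1839960 to 4072059 reads over coding exons, and those labelled Zab held 6.55 ± 0.154 such reads per 100 tags against 13.1 ± 0.00291 in WT (SD, n = 2). Of 7 osteosarcoma and mesenchymal markers, VIM, SPARC and COL1A1 were abundant and SP7 was at 0 reads in every library. ALPL and BGLAP reached at most 2.23 CPM in a group. RUNX2 was at 8.62 CPM in WT, 3.41 in Zab, 31.4 in MYC O/E and 11.5 in Zab + MYC O/E. The list summed to 3244 to 3352 CPM in WT, 3766 to 3962 in Zab, 2352 to 2396 in MYC O/E and 3032 to 3104 in Zab + MYC O/E. The sum was mostly VIM, at 2433, 3067, 1817 and 2177 CPM in that order. In Zab, SPARC (526 against 561) and COL1A1 (264 against 293) lay below WT while the sum lay above. Summed markers of epithelium, blood and endothelium stayed between 0 and 5.72 CPM and those of neural cells between 8.69 and 16.5 CPM in any library. The part of these differences in the results below was not tested.

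The ligand INHBA and its antagonist FST were low in both the libraries labelled MYC O/E and those labelled Zab, with the lowest levels in MYC O/E. ID1 and ID3 were high in the libraries labelled Zab, and ID1 was low in MYC O/E. The ligand TGFB1 was higher than in WT in both, except that its direction in Zab flipped on the deposited scale. In the libraries labelled Zab + MYC O/E no member differed from WT past the threshold. TGFB2, SMAD7 and ID2 spread widely between libraries of one group. The levels of all 10 genes in all 8 libraries are plotted first.

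**Figure D1:**
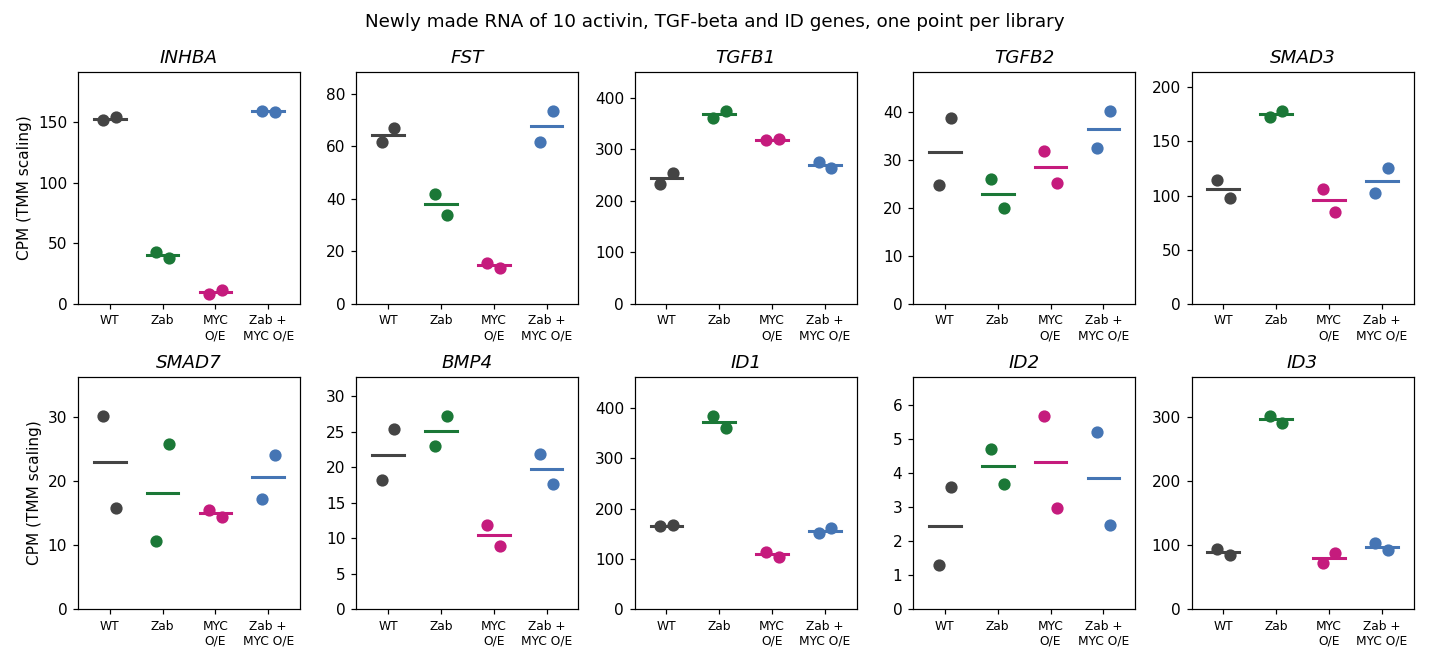
Level of each of the 10 genes in every library, in CPM with TMM scaling on linear axes that start at 0 and differ between genes; each point is 1 library and each bar the mean of the 2 libraries of a group (groups on the horizontal axis). INHBA runs from 8.26 to 160 CPM and its MYC O/E points lie below all others, while ID1 and ID3 have their highest points in the libraries labelled Zab.

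Genes were called at an adjusted p under 0.05, by limma with Benjamini-Hochberg adjustment over all 11985 genes. The fit pulls the spread of each gene toward a trend over all genes. A small p-value therefore does not rest on the spread of that gene's own libraries alone. In the libraries labelled MYC O/E over WT 1 member was higher (TGFB1) and 4 were lower (INHBA, FST, BMP4 and ID1), where 44.1% of all genes tested were called (22.2% higher and 21.9% lower). For Zab over WT 4 were higher (TGFB1, SMAD3, ID1 and ID3) and 2 lower (INHBA and FST), with 49.6% of all genes called (22.5% higher and 27.1% lower). For MYC O/E over Zab 7 were lower and 0 higher, with 56.5% of all genes called (30.6% higher and 25.9% lower); limma at an unadjusted p under 0.05, edgeR and DESeq2 also gave 0 higher. The deposited scale keeps its own factor per library, with no further scaling. On it MYC O/E over WT called 3 members higher (TGFB1, SMAD3 and ID3) and 2 lower (INHBA and FST). All 11985 genes gave 5838 higher and 1149 lower. Zab over WT called 2 higher (ID1 and ID3) and 4 lower (INHBA, FST, TGFB2 and SMAD7), with 575 and 6882 over all genes. For MYC O/E over Zab that scale gave 3 higher (TGFB1, TGFB2 and SMAD7) and 3 lower (INHBA, ID1 and ID3). Over all genes it called 8999 higher and 599 lower. With TMM the shares called were near those over all genes only when higher and lower calls were added. By direction they differed. For MYC O/E over Zab 7 of 10 members were lower and 0 higher, beside 25.9% and 30.6% of all genes. For MYC O/E over WT 4 were lower and 1 higher, beside 21.9% and 22.2%. For Zab over WT 2 were lower and 4 higher, beside 27.1% and 22.5%. On the deposited scale the calls over all genes were far from balanced. Whether the counts of the 10 genes differ from those over all genes was not tested, so none is given as a result about the 10 genes. The median log2 change of the members was -0.35 for MYC O/E over WT, 0.40 for Zab over WT and -1.04 for MYC O/E over Zab, beside -0.01, -0.08 and 0.08 over all genes tested.

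The comparison of Zab + MYC O/E with WT called 0 of the 10 members by limma, against 0.576% of all genes (0.134% higher and 0.442% lower), and edgeR and DESeq2 called 0 as well. At an unadjusted p under 0.05 limma gave 1, TGFB1, at a log2 change of 0.15 with a 95% interval of 0.00499 to 0.289. The interval of INHBA was -0.26 to 0.37, that of ID1 -0.27 to 0.0844 and that of ID3 -0.10 to 0.36. For the low genes the intervals were wide, as for SMAD7 at -0.77 to 0.58 and ID2 at -0.51 to 1.55. A difference within these intervals would go undetected here. Low reads and the spread between the 2 libraries of a group were not separated. On the deposited scale 3 members were called higher in Zab + MYC O/E than in WT (TGFB1, SMAD3 and ID3). Over all 11985 genes that scale called 1749 higher and 3 lower.

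Log2 changes below are of CPM + 1 after TMM scaling and understate the changes of low genes. The scaling matters, because the deposited values carry a factor per library whose basis is unknown. On the deposited scale, which keeps that factor, the median log2 change of all genes was 0.47 for MYC O/E over WT and -0.63 for Zab over WT. It was 1.11 for MYC O/E over Zab and 0.89 for Zab + MYC O/E over Zab. With TMM these medians were -0.01, -0.08, 0.08 and 0.06. Changes are therefore given relative to the other genes of a library. Of the genes called in Zab over WT 45.4% were higher with TMM, 31.3% with library totals and 7.71% on the deposited scale, and for MYC O/E over WT these shares were 50.3%, 45.2% and 83.6%.

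INHBA encodes the beta A chain that forms activin A as a dimer. It was counted over 1 transcript in all libraries (NM_002192, chromosome 7, 41724712 to 41742688, minus strand, hg19). The libraries labelled WT had 152 and 155 CPM, those labelled Zab 42.4 and 38.2, those labelled MYC O/E 8.26 and 11.4, and those labelled Zab + MYC O/E 160 and 159. The MYC O/E libraries lay lowest, the Zab libraries between, and WT and Zab + MYC O/E together at the top, with no overlap between these 3 levels. Behind the lowest level stood 32 and 46 reads, and behind the WT level 468 and 433. INHBA was 15.6-fold lower in MYC O/E than in WT (log2 change -3.85 ± 0.16 SE, adjusted p = 2.15e-17) and 3.80-fold lower in Zab than in WT (-1.90 ± 0.16, adjusted p = 7.14e-11). Between MYC O/E and Zab it differed by -1.95 ± 0.16 (adjusted p = 2.56e-11), and by -0.90 on the deposited scale. In a bulk sample, fewer cells that make a transcript and less of it per cell cannot be told apart.

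FST encodes follistatin, a secreted protein that binds activin and keeps it from its receptors. It was counted over NM_006350 on chromosome 5, 52776459 to 52782945, plus strand. The values were 61.9 and 67.2 CPM in WT, 41.9 and 34.0 in Zab, 15.7 and 13.6 in MYC O/E, and 61.8 and 73.7 in Zab + MYC O/E. The order of the groups was that of INHBA, and the WT and Zab + MYC O/E libraries overlapped. FST was 4.40-fold lower in MYC O/E than in WT (log2 change -2.07 ± 0.18, adjusted p = 3.20e-10) and lower in Zab by a smaller amount (-0.76 ± 0.18, adjusted p = 0.00111; -1.34 on the deposited scale). MYC O/E lay below Zab by -1.31 ± 0.18 (adjusted p = 6.98e-07), a difference that fell to -0.25 (adjusted p = 0.208) on the deposited scale.

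Ligand and antagonist did not move by the same factor. Per kilobase of counted exon, the ratio of INHBA to FST was 1.03 and 0.966 in the libraries labelled WT and 1.09 and 0.902 in Zab + MYC O/E. In Zab it was 0.425 and 0.471, and in MYC O/E 0.220 and 0.351. The ratio was therefore lower in all 4 libraries labelled Zab or MYC O/E than in the other 4, a description of levels for which no test was made. The length-scaled levels were 25.4 CPM per kb for INHBA and 25.5 for FST in WT, and 1.63 and 5.79 in MYC O/E.

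The promoters of INHBA and FST are shown because these genes had the same order of groups, and the sequence just before their starts can be set side by side. Both are the 250 bases before the RefSeq start (GRCh38.p14), 5′ to 3′ on the gene's strand: INHBA at chr7:41703091-41703340, minus strand, and FST at chr5:53480379-53480628, plus strand. Capitals mark matches to the 6 motifs searched on both strands.
INHBA: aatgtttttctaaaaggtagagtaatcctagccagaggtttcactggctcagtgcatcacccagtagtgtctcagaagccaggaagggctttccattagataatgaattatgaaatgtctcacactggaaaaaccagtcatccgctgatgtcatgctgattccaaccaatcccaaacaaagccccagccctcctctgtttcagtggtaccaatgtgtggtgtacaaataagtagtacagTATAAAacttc
FST: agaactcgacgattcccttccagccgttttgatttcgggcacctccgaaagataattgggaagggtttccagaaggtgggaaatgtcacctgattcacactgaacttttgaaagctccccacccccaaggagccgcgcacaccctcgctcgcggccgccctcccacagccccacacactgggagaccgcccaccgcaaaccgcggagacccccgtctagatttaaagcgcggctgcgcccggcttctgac
The motifs, with the share of 35116 RefSeq promoters of this length that hold each, were the E-box bound by MYC and MAX, CACGTG (6.35%), the TATA box, TATAAA (10.7%), the GC-rich SMAD site, GGCGCC (16.4%), the short SMAD box, CAGAC (38.0%), the cyclic AMP response element, TGACGTCA (1.65%), and the AP-1 site, TGACTCA (4.20%). INHBA held 1 match, TATAAA beginning at -11 from the annotated start, and FST held 0. GC content was 42.8% for INHBA and 60% for FST, with a median of 58% over all promoters. A match is a description of letters and not of a bound site.

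TGFB1 encodes the most widely expressed of the TGF-beta ligands. It was counted over NM_000660 on chromosome 19, 41836228 to 41859827, minus strand. The libraries labelled WT had 233 and 254 CPM, Zab 361 and 376, MYC O/E 319 and 319, and Zab + MYC O/E 275 and 264. Zab lay highest, then MYC O/E, and all 4 of these libraries lay above the other 4. TGFB1 was higher in Zab than in WT by 0.60 ± 0.07 on the log2 scale (adjusted p = 4.93e-08), but on the deposited scale the direction flipped to -0.00832. It was higher in MYC O/E than in WT by 0.39 ± 0.07 (adjusted p = 3.95e-05; 0.89 on the deposited scale). The gap between MYC O/E and Zab was small, at -0.21 ± 0.07 (adjusted p = 0.0127). It turned to 0.90 on the deposited scale, was -0.09 (adjusted p = 0.282) with library totals, and passed the threshold no longer without Zab 2, MYC O/E 1 or MYC O/E 2 (adjusted p = 0.0555, 0.0664 and 0.0634). Zab + MYC O/E lay below Zab by -0.45 ± 0.07 (adjusted p = 4.69e-06), which turned to 0.43 on the deposited scale, and below MYC O/E by -0.24 ± 0.07 (adjusted p = 0.00523; 0.0635 without Zab + MYC O/E 2 and 0.0721 with library totals, and a change of -0.47 on the deposited scale).

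TGFB2, a second TGF-beta ligand, lies on chromosome 1, 218518626 to 218617961, plus strand. Its values were 24.6 and 38.6 CPM in WT, 25.9 and 19.9 in Zab, 31.8 and 25.2 in MYC O/E, and 32.4 and 40.2 in Zab + MYC O/E. All neighbouring groups overlapped, and the counted transcript was not the same in every library. With limma and TMM 1 pair passed the threshold, Zab + MYC O/E over Zab at 0.65 ± 0.23 (adjusted p = 0.0220; 1.49 on the deposited scale). That call was lost without Zab 2 (adjusted p = 0.144), without Zab + MYC O/E 2 (0.202) and when the trend of change along gene span was taken out (0.25, adjusted p = 0.390). It was lost too with DESeq2 (adjusted p = 0.0905), without the filter (0.0609) and with the WT and Zab + MYC O/E pairs as 1 sample each (0.0955). Zab over WT, at -0.43 ± 0.23 (adjusted p = 0.129), was called at -0.74 without WT 1 (adjusted p = 0.0315), at -0.59 with library totals (0.0338) and at -0.998 on the deposited scale (0.000414). MYC O/E over Zab was 1.36 (adjusted p = 3.88e-06) on that scale. Per kilobase TGFB1 exceeded TGFB2 in every library, by a ratio of 14.2 and 20.4 in WT, 30.2 and 39.9 in Zab, 21.7 and 27.4 in MYC O/E and 13.9 and 18.3 in Zab + MYC O/E.

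BMP4 encodes a BMP ligand that drives osteoblast differentiation. It lies on chromosome 14 and ends at 54416455 on the minus strand, and 5 different transcripts were counted across the 8 libraries, so its values also carry a change of counted exons. The libraries labelled WT had 18.1 and 25.4 CPM, Zab 23.0 and 27.2, MYC O/E 11.9 and 8.90, and Zab + MYC O/E 21.8 and 17.6. Both MYC O/E libraries lay below the other 6, and WT overlapped both Zab and Zab + MYC O/E. The log2 change of MYC O/E over WT was -0.99 ± 0.27 (adjusted p = 0.00340), and it did not pass without WT 2 (adjusted p = 0.0781), without MYC O/E 2 (0.0626) or on the deposited scale (0.0921). Over Zab it was -1.20 ± 0.27 (adjusted p = 0.000391; 0.579 on the deposited scale). Zab + MYC O/E exceeded MYC O/E by 0.87 ± 0.27 (adjusted p = 0.00938), with adjusted p = 0.116 without MYC O/E 2 and 0.115 without Zab + MYC O/E 1. For Zab over WT the change was 0.21 ± 0.27 (adjusted p = 0.537).

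SMAD3 is the receptor-phosphorylated SMAD that carries activin and TGF-beta signals to DNA. It was counted over NM_005902 on chromosome 15, 67357940 to 67487505, plus strand, the longest span of the 10 genes. Its values were 115 and 98.0 CPM in WT, 173 and 179 in Zab, 106 and 85.1 in MYC O/E, and 102 and 125 in Zab + MYC O/E. The 2 Zab libraries lay above all 6 others, which overlapped. SMAD3 was higher in Zab than in WT by 0.72 ± 0.12 (adjusted p = 1.45e-05), with a change of 0.12 (adjusted p = 0.395) on the deposited scale. MYC O/E and Zab + MYC O/E lay below Zab by -0.88 ± 0.12 (adjusted p = 4.98e-07) and -0.63 ± 0.12 (adjusted p = 8.48e-05), and on the deposited scale these turned to 0.22 and 0.25. The change of MYC O/E over WT was -0.16 ± 0.12 (adjusted p = 0.299), and it flipped to 0.34 (adjusted p = 0.0181) on the deposited scale. Zab + MYC O/E exceeded MYC O/E by 0.25 ± 0.12, short of the threshold (adjusted p = 0.0918). That change passed with library totals (0.34, adjusted p = 0.0212) and with edgeR (0.25, adjusted p = 0.0467). With single libraries left out it ranged from 0.0948 to 0.41.

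SMAD7, the inhibitory SMAD that TGF-beta signalling itself switches on, lies on chromosome 18, 46446223 to 46477081, minus strand. The values were 30.1 and 15.7 CPM in WT, 10.6 and 25.7 in Zab, 15.5 and 14.3 in MYC O/E, and 17.1 and 24.1 in Zab + MYC O/E. The 2 libraries of WT, and the 2 of Zab, lay farther apart than any 2 group means, on 18 to 97 reads a library. Of the 6 pairs of groups none passed the threshold in limma, and 95% intervals reached from -1.05 to 0.30 for Zab over WT and from -1.20 to 0.15 for MYC O/E over WT. Zab over WT was -0.98 (adjusted p = 0.0201) without Zab 2 but 0.22 without Zab 1 and 0.0725 without WT 1, and edgeR gave -0.63 (adjusted p = 0.0465) for MYC O/E over WT. The deposited scale gave calls of -0.93 for Zab over WT (adjusted p = 0.0133), 0.88 for MYC O/E over Zab (0.0137) and 1.10 for Zab + MYC O/E over Zab (0.00318).

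ID1, the best known ID gene, lies on chromosome 20, 30193092 to 30194313, plus strand. The transcript counted, NM_181353, has an exon length of 1221 bases over that span, so no intron was left out. The libraries labelled WT had 166 and 167 CPM, Zab 385 and 360, MYC O/E 113 and 104, and Zab + MYC O/E 151 and 161. Zab lay far above the rest and MYC O/E below the rest, with no overlap, and WT lay above both Zab + MYC O/E libraries by a small margin. ID1 was 2.24-fold higher in Zab than in WT (log2 change 1.16 ± 0.09, adjusted p = 1.04e-11) and lower in MYC O/E than in WT (-0.61 ± 0.09, adjusted p = 1.49e-06). MYC O/E lay below Zab by -1.77 ± 0.09 (adjusted p = 6.59e-16) and Zab + MYC O/E by -1.25 ± 0.09 (adjusted p = 1.74e-12), which were -0.67 and -0.37 on the deposited scale. Zab + MYC O/E exceeded MYC O/E by 0.52 ± 0.09 (adjusted p = 1.67e-05; 0.30 on the deposited scale). On the deposited scale the ID1 change of MYC O/E over WT was -0.11 (adjusted p = 0.277), while that of Zab over WT stayed called at 0.55.

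ID3 lies on chromosome 1, 23884417 to 23885992, minus strand (NM_002167). Its values were 93.3 and 84.4 CPM in WT, 301 and 290 in Zab, 71.0 and 87.0 in MYC O/E, and 103 and 91.6 in Zab + MYC O/E. Both Zab libraries lay above all others, and WT overlapped MYC O/E and Zab + MYC O/E. ID3 was 3.33-fold higher in Zab than in WT (1.72 ± 0.11, adjusted p = 5.78e-13), and this stayed called at 1.12 on the deposited scale. MYC O/E and Zab + MYC O/E lay below Zab by -1.90 ± 0.11 (adjusted p = 3.96e-14) and -1.60 ± 0.11 (adjusted p = 2.36e-12), which were -0.80 and -0.72 on the deposited scale. For MYC O/E over WT the change was -0.17 ± 0.11 (adjusted p = 0.220), and it flipped to 0.32 (adjusted p = 0.0151) on the deposited scale. Zab + MYC O/E exceeded MYC O/E by 0.30 ± 0.11 (adjusted p = 0.0312), a call lost without MYC O/E 1 (adjusted p = 0.397) or Zab + MYC O/E 1 (0.252). That change was 0.0784 (adjusted p = 0.591) on the deposited scale, and it did not pass with DESeq2 (0.0609), without the filter (0.0605) or with the WT and Zab + MYC O/E pairs as 1 sample each (0.127).

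ID2 was low in every library. It lies on chromosome 2, 8822186 to 8824591, plus strand, and had 1.30 and 3.58 CPM in WT, 4.72 and 3.67 in Zab, 5.68 and 2.97 in MYC O/E, and 5.19 and 2.48 in Zab + MYC O/E. These rest on 4 to 22 reads a library, and all groups overlapped except WT and Zab. Of the 6 pairs none passed the threshold in limma, with a 95% interval of -0.36 to 1.70 for Zab over WT, so a change like that of ID1 was within the interval. Per kilobase, WT had 136 CPM for ID1, 94.0 for ID3 and 1.88 for ID2. The per-kilobase ratio of ID1 to ID3 was 1.38 and 1.53 in WT, 0.989 and 0.961 in Zab, 1.24 and 0.926 in MYC O/E, and 1.14 and 1.36 in Zab + MYC O/E.

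ID1 and ID3 stood out from ID2 in level and were both highest in the libraries labelled Zab, and their promoters are shown for that reason. The 250 bases before each RefSeq start (GRCh38.p14) are at chr20:31605039-31605288, plus strand, for ID1 and at chr1:23559502-23559751, minus strand, for ID3, with motif matches in capitals as above.
ID1: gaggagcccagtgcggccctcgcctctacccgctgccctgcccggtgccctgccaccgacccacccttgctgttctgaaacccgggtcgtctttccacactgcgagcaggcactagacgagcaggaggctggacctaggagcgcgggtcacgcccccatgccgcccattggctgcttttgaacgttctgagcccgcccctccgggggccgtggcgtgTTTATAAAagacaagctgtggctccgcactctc
ID3: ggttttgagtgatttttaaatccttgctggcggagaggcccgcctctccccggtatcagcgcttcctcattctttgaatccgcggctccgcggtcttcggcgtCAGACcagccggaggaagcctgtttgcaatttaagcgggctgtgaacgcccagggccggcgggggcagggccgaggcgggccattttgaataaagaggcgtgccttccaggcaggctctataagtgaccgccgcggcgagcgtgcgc
ID1 held TATAAA on both strands in overlapping letters, with matches that begin at -33 and -31 from the start, and ID3 held CAGAC at -147. Neither held CACGTG or GGCGCC in this window, which says nothing of the factors that bind those letters. Of the other members searched, CACGTG lay at -49 in TGFB2, at -83 from a start of BMP4 and at -173 from a start of SMAD3. BMP4 and SMAD3, each searched at several starts, also held GGCGCC. GC content was 66% for ID1 and 62% for ID3.

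**Figure D2:**
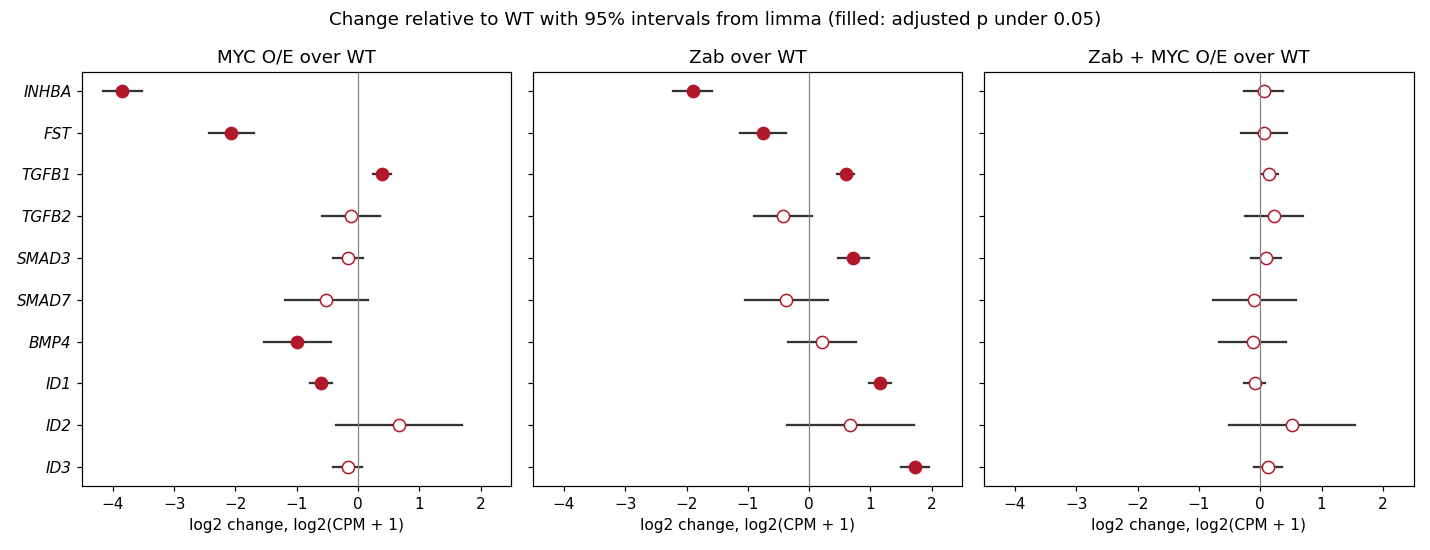
Log2 change of each of the 10 genes (vertical axis) in each of 3 comparisons (horizontal axis, log2 of CPM + 1) against WT, with 95% intervals from limma as lines; filled points passed an adjusted p under 0.05. INHBA and FST lie left of 0 for MYC O/E over WT and Zab over WT, ID1 and ID3 lie right of 0 for Zab over WT, and no point is filled for Zab + MYC O/E over WT.

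Zab + MYC O/E was also compared with MYC O/E and with Zab. Over MYC O/E, 5 members were higher (INHBA, FST, BMP4, ID1 and ID3) and 1 lower (TGFB1), with 44.6% of all genes called (22.0% higher and 22.5% lower). Over Zab, 3 were higher (INHBA, FST and TGFB2) and 4 lower (TGFB1, SMAD3, ID1 and ID3), with 49.5% of all genes called (26.8% higher and 22.6% lower). On the deposited scale the calls over MYC O/E were 4 higher (without ID3) and 1 lower, with 1853 and 4006 over all genes. Those over Zab were 5 higher (INHBA, FST, TGFB1, TGFB2 and SMAD7) and 2 lower (ID1 and ID3), with 8807 and 237 over all genes. The members' medians were 0.38 and -0.25, beside 0.03 and 0.06 over all genes. INHBA was 16.2-fold higher than in MYC O/E (3.90 ± 0.16, adjusted p = 1.27e-17) and 3.95-fold higher than in Zab (1.96 ± 0.16, adjusted p = 3.35e-11). FST was higher by 2.13 ± 0.18 (adjusted p = 1.68e-10) and 0.82 ± 0.18 (adjusted p = 0.000479; 1.68 on the deposited scale). These comparisons share libraries with those above and with each other, so their values are not separate evidence of one pattern.

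The interaction asks whether the change with the Zab label was the same with and without the MYC O/E label; it is Zab + MYC O/E over MYC O/E minus Zab over WT. It called 3 members higher and 4 lower, with 53.3% of all genes called (29.3% higher and 24.0% lower). INHBA had 5.81 ± 0.22 (adjusted p = 2.68e-18), from a change of -1.90 without and 3.90 with the MYC O/E label. FST had 2.89 ± 0.26 (adjusted p = 2.88e-10), ID3 -1.43 ± 0.16 (adjusted p = 1.78e-08) and TGFB1 -0.84 ± 0.10 (adjusted p = 4.27e-08; -0.46 on the deposited scale). ID1 had -0.64 ± 0.12 (adjusted p = 7.39e-05), which was -0.11 (adjusted p = 0.467) once the trend along gene span was taken out and -0.26 (0.0812) on the deposited scale. SMAD3 had -0.47 ± 0.17 (adjusted p = 0.0210), lost without WT 2, MYC O/E 1 or Zab + MYC O/E 1 (adjusted p = 0.120, 0.178 and 0.159). It was also lost with library totals (-0.21, adjusted p = 0.307), on the deposited scale (-0.0894, 0.677), without the filter (0.0601) and with the pairs as 1 sample each (0.0934), and was -1.02 with the span trend taken out. TGFB2 had 0.77 ± 0.33 (adjusted p = 0.0499), lost without any of 6 libraries (both MYC O/E, both Zab + MYC O/E, WT 2 and Zab 2), with adjusted p from 0.0529 to 0.302. In all it was lost in 12 of 17 alternatives, among them the span trend taken out (0.28, adjusted p = 0.502), DESeq2 (0.120), no filter (0.106) and a pseudocount of 0.25 (0.0587). SMAD7 and BMP4, not called, passed on the deposited scale at 1.15 (adjusted p = 0.0324) and 1.03 (0.0215). BMP4 passed with library totals too, at 0.91 (adjusted p = 0.0417). With single libraries left out the SMAD7 interaction ranged from 0.20 to 1.40. Since MYC stood at 762 CPM in Zab + MYC O/E and 764 in WT, the interaction compares the libraries as labelled. By its terms it equals Zab + MYC O/E over WT minus MYC O/E over WT minus Zab over WT. For INHBA these changes were 0.0551, -3.85 and -1.90, so the interaction is not separate evidence from them.

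Gene span moved with the change of Zab over WT over all genes. The median log2 change was 0.34 for the 1169 genes spanning up to 5 kb, where 38.4% were called higher, and 0.13, -0.18 and -0.36 for those of 5 to 20, 20 to 100 and over 100 kb. The 3 ID genes are in the shortest class. With this trend taken out, ID1 was higher in Zab by 0.66 (adjusted p = 6.13e-07) and ID3 by 1.30 (adjusted p = 1.90e-10), so both calls held with smaller values. SMAD3 goes the other way, with the longest span among the 10 and a higher level in Zab, and its change grew to 1.10 with the trend taken out. TGFB1 moved from 0.60 to 0.72.

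**Figure D3:**
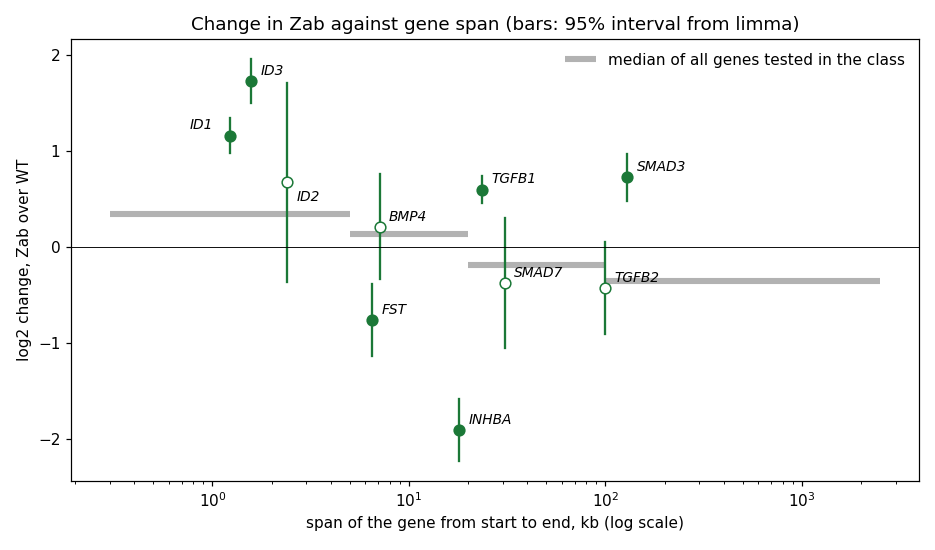
Log2 change of the libraries labelled Zab over WT (vertical axis) against gene span in kb (horizontal, log axis); each point is 1 of the 10 genes with its 95% interval, filled where called, and grey bars are the medians of all tested genes in 4 span classes. The grey medians fall from 0.34 to -0.36, and ID1, ID3 and SMAD3 lie above the bar of their class while INHBA and FST lie below.

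Other genes of the superfamily were read from a list of 94, all in the files, of which 68 passed the filter. Log2 changes of single genes in this list are given with TMM scaling only. In MYC O/E over WT 16 were higher and 22 lower (median 0.03, against -0.01 over all genes tested), where 22.2% and 21.9% of all genes were called. In Zab over WT 21 were higher and 14 lower (median 0.11 against -0.08), where 22.5% and 27.1% were called. In Zab + MYC O/E over WT 1 of the 68 was called, the ligand BMP8B, lower at -1.44 ± 0.31 (adjusted p = 0.0165), and the list had no call without WT 2, MYC O/E 1, MYC O/E 2, Zab + MYC O/E 1 or Zab + MYC O/E 2.

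Of 12 tested textbook targets of TGF-beta 8 were lower and 2 higher in MYC O/E than in WT (median -1.28), where 21.9% of all genes were called lower and 22.2% higher. CCN2, connective tissue growth factor, was at 93.9 CPM against 701 in WT (log2 change -2.89 ± 0.06), FN1, fibronectin, at 60.8 against 415 (-2.75 ± 0.08) and TGFBI, a matrix protein named for its induction by TGF-beta, at 2.87 against 25.1 (-2.89 ± 0.29). In Zab the same list had 6 higher and 2 lower (median 0.25; 22.5% and 27.1% of all genes), with TGFBI at 121 CPM, 2.22 ± 0.29 above WT. So TGFBI lay below WT in one group and above it in the other, and MYC O/E lay below Zab by -5.10 ± 0.29 (adjusted p = 1.91e-14). TGFBI was low in MYC O/E, at 2.87 ± 2.23 CPM (SD, n = 2).

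The list of other ligands also holds BMP1, a protease and not a ligand, at 20.3 CPM in MYC O/E against 31.6 in WT. Of the 11 genes tested from it 6 were higher and 2 lower in MYC O/E over WT (median 1.13), beside 22.2% and 21.9% of all genes. GDF15, a stress-induced member of the superfamily, was at 138 CPM against 37.0 (1.87 ± 0.14, adjusted p = 2.07e-11), and TGFB3 at 23.3 against 7.03 (1.61 ± 0.35, adjusted p = 0.000519). In Zab 4 genes of this list were higher and 2 lower (median 0.01, beside 22.5% and 27.1% of all genes), with BMP5 at 10.4 against 37.3 CPM (-1.80 ± 0.26). Of 11 receptors 2 were higher and 3 lower in MYC O/E, led by the co-receptor TGFBR3 at 20.8 against 4.25 CPM (2.04 ± 0.40). In Zab 2 receptors were called, both lower, among them the BMP receptor BMPR1B (-1.41 ± 0.42). BMPR1B was low and spread widely, at 3.21 ± 2.87 CPM in Zab against 8.93 ± 2.54 in WT (SD, n = 2).

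Extracellular antagonists and latency proteins had 1 of 8 higher and 4 lower in MYC O/E (median -0.34), and 5 higher and 1 lower in Zab (median 0.46). The shares of all tested genes called were 22.2% (higher) and 21.9% (lower) for MYC O/E, and 22.5% and 27.1% for Zab, beside which the counts of this paragraph stand. NOG, noggin, which blocks BMP ligands, was at 95.6 CPM in Zab against 28.9 in WT (1.69 ± 0.19, adjusted p = 2.49e-08), in the libraries where ID1 and ID3 were also highest. Of the 6 other SMADs 1 was called in each of these comparisons, higher. In Zab it was the inhibitory SMAD6, at 8.25 ± 1.66 CPM against 3.05 ± 0.269 in WT (SD, n = 2). The log2 change of SMAD6 was 1.18 ± 0.42 (adjusted p = 0.0213). Intracellular regulators had 2 of 14 higher and 4 lower in MYC O/E, and 3 higher and 6 lower in Zab. USP15, a deubiquitinase that acts on SMADs and receptors, was at 13.2 CPM in Zab against 68.0 in WT (-2.28 ± 0.17, adjusted p = 7.78e-12). ID4 and the helix-loop-helix partners of ID proteins had 2 of 6 higher and 1 lower in MYC O/E over WT, and the same counts in Zab over WT.

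Over Zab, MYC O/E had 20 of the 68 genes higher and 24 lower (30.6% and 25.9% of all genes), with FN1 at -3.05 ± 0.08, CCN2 at -2.84 ± 0.06, TGFB3 at 2.48 ± 0.35, USP15 at 2.31 ± 0.17 and TGFBR3 at 2.02 ± 0.40. Zab + MYC O/E had 21 higher and 20 lower than MYC O/E (22.0% and 22.5% of all genes), with CCN2 at 2.97 ± 0.06, FN1 at 2.77 ± 0.08, TGFBI at 2.53 ± 0.29, TGFBR3 at -1.98 ± 0.40, the ligand GDF1 at -1.95 ± 0.44 and GDF15 at -1.64 ± 0.14. Against Zab it had 13 higher and 20 lower (26.8% and 22.6% of all genes), with USP15 at 2.52 ± 0.17, BMP5 at 1.87 ± 0.26, BMPR1B at 1.48 ± 0.42, TGFBI at -2.57 ± 0.29, BMP8B at -2.40 ± 0.31 and NOG at -1.58 ± 0.19. The interaction had 20 higher and 20 lower (29.3% and 24.0% of all genes), with the transcription factor SNAI2 at 3.46 ± 0.54, BMP5 at 3.43 ± 0.37, CCN2 at 3.02 ± 0.09, GDF15 at -2.47 ± 0.20, the SMAD co-repressor SKI at -2.44 ± 0.17 and BMP8B at -2.44 ± 0.43.

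**Figure D4:**
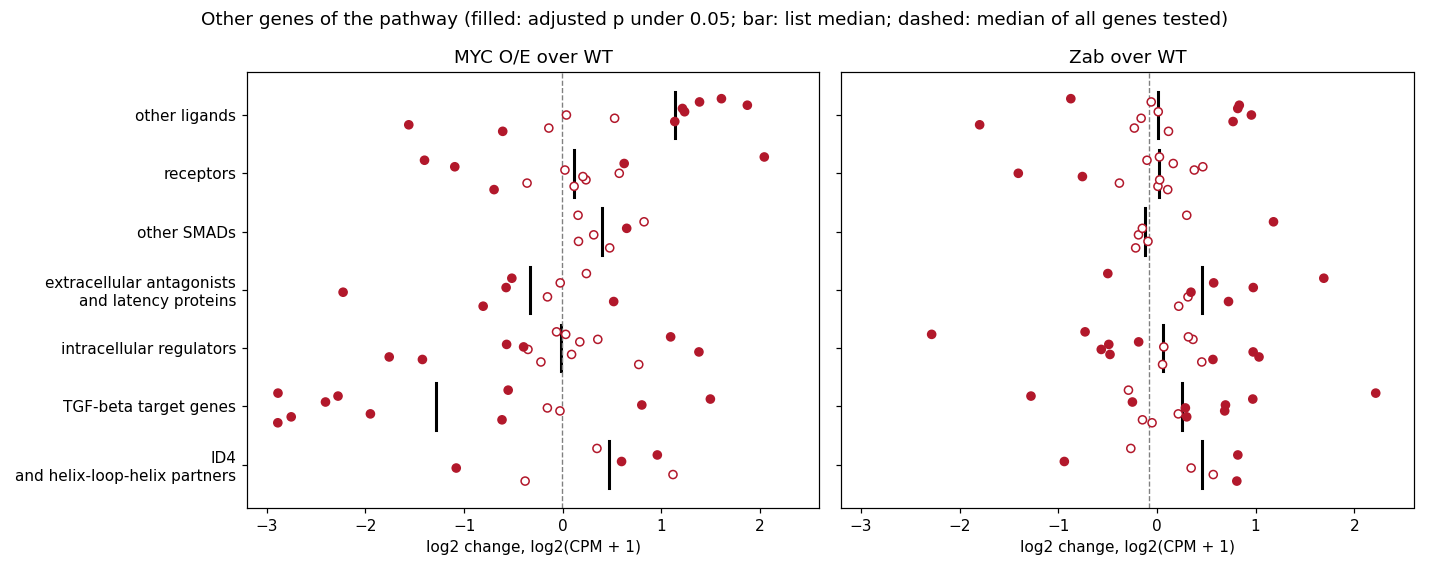
Log2 change of the 68 tested genes of the superfamily list, by role (vertical axis), for the libraries labelled MYC O/E over WT and Zab over WT (horizontal axis, log2 of CPM + 1); each point is 1 gene, filled where called, with a black bar at the list's median and a dashed line at the median of all genes tested. The TGF-beta targets centre on -1.28 in MYC O/E over WT and on 0.25 in Zab over WT.

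The genes whose profile over the 8 libraries was most like that of each member were found by the smallest root mean square difference of centred log2 values, a description with no test. For INHBA they were ANKRD1 (0.28), SYP (0.31) and F3 (0.32), set against an SD of 1.72 of INHBA itself. ANKRD1, a nuclear cofactor induced by stretch, was at 179 ± 2.11 CPM in WT, 61.8 ± 14.8 in Zab, 9.81 ± 2.92 in MYC O/E and 168 ± 4.77 in Zab + MYC O/E (SD, n = 2). For FST the nearest were GABARAPL1 (0.14), CASP4 (0.16) and FAM210B (0.18). For TGFB1 they were SRM (0.048), AMPD2 (0.052) and GALNT2 (0.057). SRM, spermidine synthase, was at 240 ± 13.5 CPM in WT, 353 ± 5.43 in Zab, 329 ± 0.181 in MYC O/E and 255 ± 0.851 in Zab + MYC O/E.

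ID1 was nearest to PPP1R12C (0.074), SORBS3 (0.083) and CAPNS1 (0.096), and ID3 to P4HB (0.11), NIBAN2 (0.13) and CKAP4 (0.14). P4HB, protein disulfide isomerase of the endoplasmic reticulum, was at 440.5 ± 8.58 CPM in WT, 1314 ± 40.0 in Zab, 396 ± 1.70 in MYC O/E and 444 ± 9.48 in Zab + MYC O/E. SMAD3 was nearest to DGCR2 (0.097), EHD1 (0.099) and NFKB2 (0.0997), and BMP4 to RPL39L (0.11), CDYL2 (0.13) and IDH2 (0.14). For TGFB2 (STK33, MTRNR2L2 and TYW1), SMAD7 (BCDIN3D, CEP128 and MYD88) and ID2 (FUT1, ZNF490 and QRICH2) the libraries of one group spread widely, and no likeness is given. No member was among the 3 nearest genes of another member.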

How the data were processed

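TT-seq libraries were grouped by the genotype label. The tools bedtools 2.29.2, SAMtools 1.11, STAR and Trim Galore 0.6.6, with hg19 and dm6, are named in the submitters' processing notes, without order. Reads were counted by the authors with HOMER over exons of hg19 RefSeq genes, 1 transcript per symbol chosen in each library, per the file headers. The deposited values are a signal, whole reads times a factor per library of unknown basis; 99.95% to 100% of values were whole multiples of the step (0.204 to 0.259) within 0.02 reads, and 77.2% to 82.7% of those from 1 to 20 reads were even.

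From them CPM was computed with TMM scaling (edgeR 4.0.16). Genes passing filterByExpr at 10 reads were tested by limma 3.58.1 in R 4.3.3, with a prior trend, on log2(CPM + 1), in one fit of 8 libraries with a term per group (4 residual degrees of freedom, 7 comparisons). The step was tested on simulated data. An exact permutation of 2 against 2 cannot go below p = 0.333. Alternatives were edgeR and DESeq2 1.42.0 on recovered reads, other scalings, a pseudocount of 0.25, no filter, a replicate block, the WT and Zab + MYC O/E pairs taken as 1 sample each, gene-span trend removal and each library left out. Besides all members, text names pathway genes with the 3 largest called changes each way at a mean of at least 5 CPM, the 3 nearest profiles of each member, and MYC and ADAR. Members and lists were chosen with earlier results of these data known. Promoters are RefSeq's (GRCh38.p14; 10 of 10 members matched). Reads of a gene and its antisense partner were separated as far as the strand setting in the headers did so.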

Additional observations from a re-analysis of the deposited data

Results flagged for a closer look

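For 7 of the 10 genes the change with the Zab label differed between libraries with and without the MYC O/E label, by limma's interaction term (adjusted p under 0.05 over all genes). The difference of log2 changes was 5.81 for INHBA, 2.89 for FST, -0.84 for TGFB1, 0.77 for TGFB2, -0.47 for SMAD3, -0.64 for ID1 and -1.43 for ID3. The INHBA change was -1.90 without the MYC O/E label and 3.90 with it, and the FST change was -0.76 and 2.13. For ID3 it was 1.72 and 0.30, for ID1 1.16 and 0.52, for SMAD3 0.72 and 0.25, for TGFB1 0.60 and -0.24, and for TGFB2 -0.43 and 0.34. Across all genes 53.3% passed the same test. The term equals Zab + MYC O/E over WT, where no member was called, minus the MYC O/E over WT and Zab over WT changes. For INHBA it mostly restates those changes, -3.85 and -1.90. It is not separate evidence. Of 17 alternatives the TGFB2 call was lost in 12 and the SMAD3 call in 7, and that of ID1 was lost with the span trend taken out (-0.11, adjusted p = 0.467) and on the deposited scale (-0.26, 0.0812). The libraries labelled Zab + MYC O/E had MYC at 762 CPM against 764 in WT and ADAR at 32311 against 33906, and the part of this in the difference was not tested.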

How the results depend on the processing

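Of 38 called changes of the 10 genes (among 70), 21 stayed called in the same direction under all 17 alternatives, including the 6 called changes of INHBA and those of ID1 and ID3 in Zab over WT. Among the alternatives other than library totals and the deposited scale, 29 did. Only the deposited scale reversed called changes, 5 in all: TGFB1 at -0.00832 for Zab over WT, 0.90 for MYC O/E over Zab and 0.43 for Zab + MYC O/E over Zab, and SMAD3 at 0.22 and 0.25 for the last 2 comparisons. It also reversed uncalled changes, of which SMAD3 and ID3 in MYC O/E over WT (adjusted p = 0.0181 and 0.0151) and SMAD7 in MYC O/E over Zab (0.0137) passed in the new direction: for MYC O/E over WT TGFB2 (0.36), SMAD3 (0.34) and ID3 (0.32), for Zab over WT BMP4 (-0.37), for Zab + MYC O/E over WT SMAD7 (0.17), BMP4 (0.14) and ID1 (0.18), for MYC O/E over Zab SMAD7 (0.88) and ID2 (0.86), and for Zab + MYC O/E over Zab BMP4 (0.50) and ID2 (0.53). ID2 further turned to 0.0909, 0.0205 and 0.35 for MYC O/E over Zab with library totals, edgeR and the span trend removed, and to 0.0131 and 0.15 for Zab + MYC O/E over Zab with library totals and the span trend removed.

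With single libraries left out, uncalled changes that turned ranged from -0.43 to 0.19 (TGFB2, MYC O/E over WT), -0.98 to 0.22 (SMAD7, Zab over WT) and -0.0199 to 0.44 (BMP4, Zab over WT). For Zab + MYC O/E over WT they ranged from -0.0616 to 0.19 (FST), -0.0938 to 0.53 (TGFB2), -0.0517 to 0.24 (SMAD3), -0.55 to 0.35 (SMAD7) and -0.36 to 0.11 (BMP4). SMAD7 ranged from -0.75 to 0.45 in MYC O/E over Zab and from -0.32 to 0.88 in Zab + MYC O/E over Zab, and ID2 from -0.38 to 0.37, -0.56 to 0.27 and -0.57 to 0.26 in MYC O/E over Zab, Zab + MYC O/E over MYC O/E and Zab + MYC O/E over Zab. A lone library left in a group is assumed to vary like the others.

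Members called in Zab + MYC O/E over WT were 0, and 3 on the deposited scale. Over all 11985 genes the calls were 16 higher and 53 lower, and 1749 and 3 on that scale. Superfamily genes called there were 1, and 15 on the deposited scale, 0 without a filter, with DESeq2 and with the WT and Zab + MYC O/E pairs as 1 sample each, and 0 to 1 with a library left out. With those pairs as 1 sample each the calls fell from 35 to 21 in Zab over WT and from 33 to 21 in Zab + MYC O/E over Zab, with fewer samples in the fit.

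Replicate numbers did not pair the libraries: deviations from group means correlated at -0.0262 to 0.00992 between same-numbered libraries. With the replicate block 69 of the 70 changes kept their call, and the TGFB2 interaction had 0.77 (adjusted p = 0.0516). ID2 rested on 4 to 22 reads a library, SMAD7 on 18 to 97 and BMP4 on 36 to 84. INHBA fell to 32 reads in its lowest library and TGFB2 to 38.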
